A study of Homo sapiens with 23 samples.

Results

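The 10 genes described here code for alpha- and beta-tubulin isotypes, and were picked by symbol and matched to Ensembl identifiers among the 57875 genes listed for each sample. They are 6 beta-tubulin genes (TUBB, TUBB2A, TUBB2B, TUBB3, TUBB4B and TUBB6) and 4 alpha-tubulin genes (TUBA1A, TUBA1B, TUBA1C and TUBA4A), and all 10 were found and passed the filter on low counts. RNA had been sequenced from HCT116 cells, a human colorectal carcinoma line, in 15 samples: 3 biological replicates each of wild-type cells and of lines labelled as knockouts of AGO1, of AGO2, of both (AGO1/2) or of these and AGO3 (AGO1/2/3). The knockouts were made by CRISPR editing in HCT116 and share that background, with no drug or other treatment named, and each genotype is represented by a single cell line, so that genotype and line cannot be told apart. Argonaute (AGO) proteins hold microRNAs (miRNAs) and guide them to matching messenger RNAs, and the study asked how loss of several AGO proteins changes RNA levels.

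Microtubules are hollow polymers of alpha-tubulin and beta-tubulin joined as a dimer. Human cells carry several genes for each subunit, whose products (isotypes) differ mainly in the carboxy-terminal tail, and a tissue uses its own mix of them. TUBB, TUBB4B, TUBA1B and TUBA1C are widely expressed, TUBB2A, TUBB2B, TUBB3 and TUBA1A are best known from neurons, TUBB6 is a less common isotype with a divergent tail, and TUBA4A lacks the genetically encoded terminal tyrosine of most alpha-tubulins. Cells also adjust tubulin RNA to need: when free dimers are in excess, TTC5 binds the amino terminus of a nascent tubulin chain on the ribosome, and SCAPER and the CCR4-NOT deadenylase then lead to decay of the RNA.

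Between 27709971 and 45271146 estimated counts were assigned to genes per sample, and 22842 genes were tested. Levels are given as CPM (counts scaled to the library total) after TMM normalization, as mean ± SD over the 3 replicates. Differences are log2 fold changes with the standard error (SE) of edgeR's quasi-likelihood test fitted to all 15 samples, and a gene was called higher or lower at a Benjamini-Hochberg adjusted p over all genes tested at or under 0.05. The targeted genes were read as a check of the labels. RNA of AGO1 was lower in the 3 lines lacking it (32.4 to 36.6 CPM on average, 130.8 CPM in wild-type cells), and RNA of AGO3 fell to 51.8 CPM in AGO1/2/3 knockout cells from 112.4 CPM. AGO2 RNA was 286.3 CPM in AGO2 knockout cells, 339.0 CPM in AGO1/2 and 537.8 CPM in AGO1/2/3 knockout cells against 406.5 CPM in wild-type cells, and it was called lower in the first (-0.51) and higher in the last (0.40), so that the AGO2 RNA level did not track the labelled genotype. The files hold no protein measurement. The study characterized the edits by DNA sequencing and the lines by western blot, and the lines are named by their labels. The epithelial markers EPCAM (205 to 222 CPM in the wild-type samples) and KRT8 (596 to 688 CPM) were high, whereas CDX2 (6.86 to 9.72 CPM) was low in them and VIL1 lay under 0.19 CPM. Wild-type replicate 2 and AGO1 knockout replicate 3 scored highest (0.56 and 0.41) on the first component of the deviations of genes from line means. They are called here the 2 libraries that stand apart. No other sample was above 0.18, and the lowest score was -0.37, in wild-type replicate 3 and AGO1 knockout replicate 1. Since AGO1 knockout replicate 2 scored -0.03, replicates 1 and 3 of that line lay on either side of it, and replicate 3 is 1 end of a spread. Calls that changed without both libraries are given beside the results.

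The sequences of the isotypes are shown first because they limit how reads can be told apart. In the canonical transcripts of GENCODE v44, TUBB2A and TUBB2B were identical at 98.1% of aligned coding bases and at 77.5% of the 160 aligned bases of their 3'-UTRs. TUBA1A and TUBA1B were identical at 97.4% of aligned coding bases, TUBA1B and TUBA1C at 97.3%, while TUBB and the other listed beta-tubulins shared 82.7% to 85.0%. The opening 4 codons, which encode the amino terminus that TTC5 binds, are set out here with the start codon in lower case and the next 3 codons in capitals, on GRCh38.
TUBB: atgAGGGAAATC
TUBB2A: atgCGCGAGATC
TUBB2B: atgCGTGAGATC
TUBB3: atgAGGGAGATC
TUBA1A: atgCGTGAGTGC
TUBA4A: atgCGTGAATGC
These lie on the plus strand at chr6:30720507-30720518 for TUBB and at chr16:89923402-89923413 for TUBB3, and on the minus strand at chr6:3157452-3157463 for TUBB2A and at chr6:3227532-3227543 for TUBB2B. In the alpha-tubulin genes an intron splits the stretch, and TUBA1B and TUBA1C carry the same 12 bases as TUBA1A. The last codon shown, ATC or TGC, separates the beta from the alpha isotypes.

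**Figure D1:**
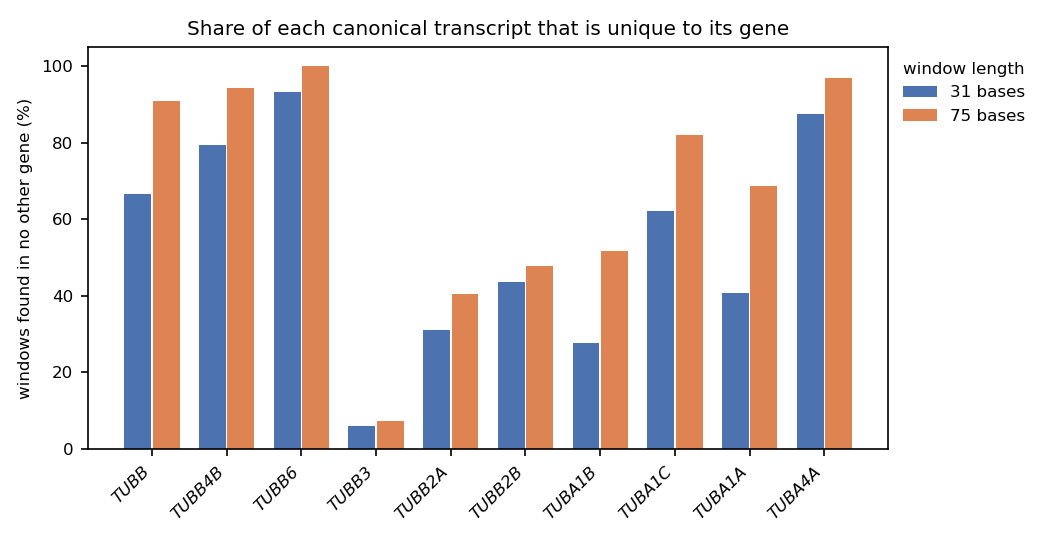
Share of the 31-base and 75-base windows of each canonical transcript (percent, y axis) that occurs in no transcript of another gene of GENCODE v44, for the 10 isotypes (x axis). TUBB6 is nearly all unique, at 93.2% of 31-base windows, and TUBB3 shares most of its windows with a readthrough gene, leaving 6.0% unique.

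The share of a transcript that no other gene holds differed widely between isotypes. Of the 31-base windows of TUBB2A, 31% were found in no other gene and 62.9% were shared with TUBB2B, and of those of TUBB2B 43.7% were unique. TUBA1B had 27.8% unique windows and TUBA1A 40.7%. For TUBB3 only 6.0% were unique, because an annotated readthrough gene overlaps it, but the authors' counting assigned that gene no more than 0.439 CPM in any sample. The annotated tubulin pseudogenes and this readthrough gene, 52 genes in all, together took 0.149% to 0.391% of the counts of the 10 isotypes. Reads shared by near-identical isotypes were split by the authors' estimation step, so that the separate levels of TUBB2A and TUBB2B, and of TUBA1A, TUBA1B and TUBA1C, are less certain than those of TUBB6, TUBB4B or TUBA4A. The gene spans of TUBA1A and TUBA1C also overlap on opposite strands of chromosome 12, and the library kit kept strand.

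**Figure D2:**
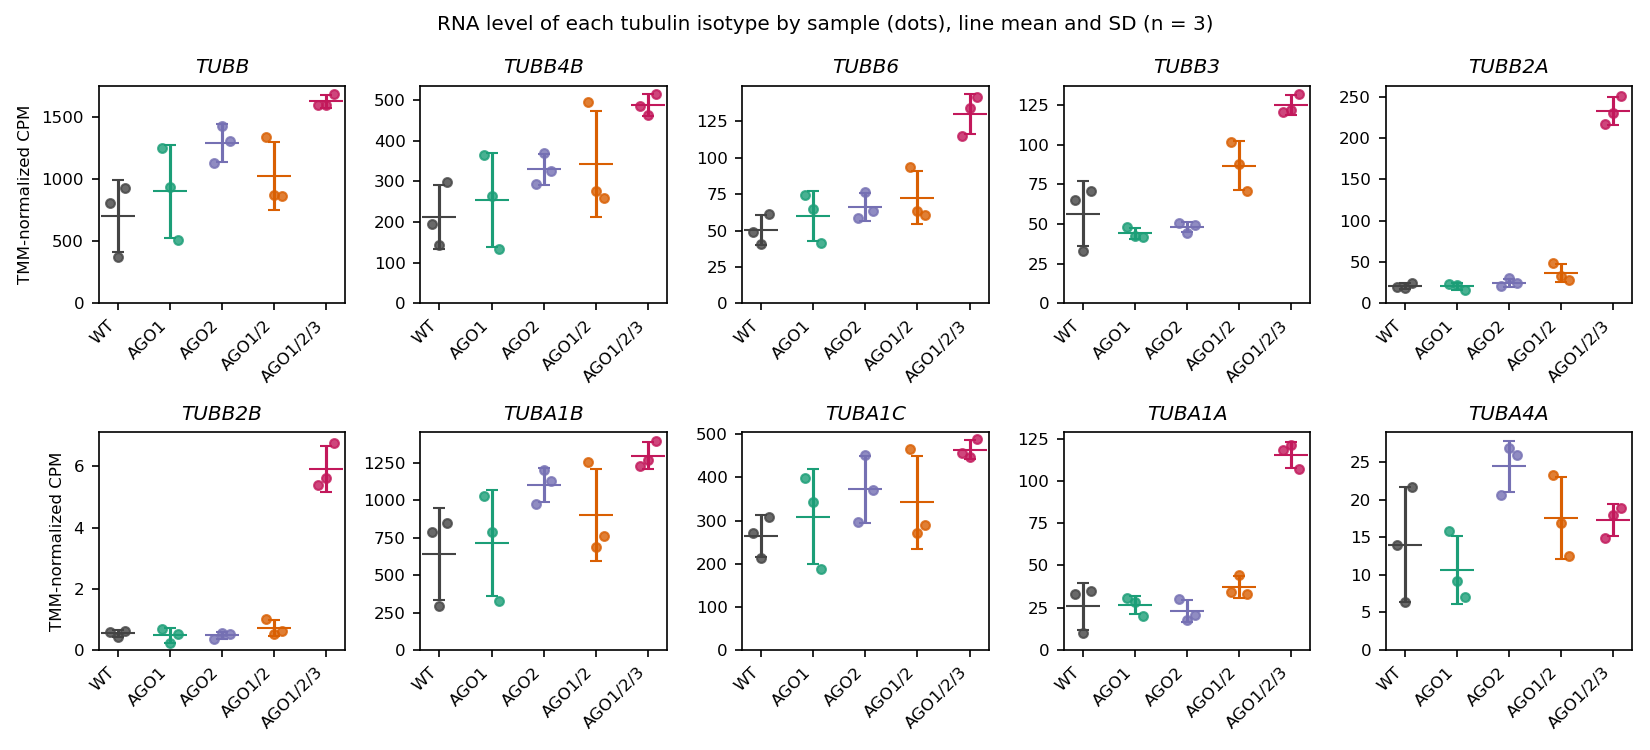
Level of each isotype (TMM-normalized CPM, y axis, each panel with its own linear scale from 0) in the 5 lines (x axis); dots are the 3 replicates in order, the horizontal bar is the mean and the error bar the SD. In AGO1/2/3 knockout cells the replicates of TUBB2A (217.2 to 251.0 CPM), TUBB2B (5.38 to 6.78 CPM) and TUBA1A (106.8 to 121.1 CPM) lie far above those of every other line.

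TUBB (chr6:30717435-30725538, plus strand, ENSG00000196230), the main beta-tubulin of most dividing cells, was the most abundant beta-tubulin in all 5 lines. Wild-type replicates 1, 2 and 3 had 809.6, 374.2 and 926.9 CPM, and the AGO1 knockout replicates 1255, 941.1 and 510.9 CPM. AGO2 knockout cells had 1131, 1432 and 1307 CPM, AGO1/2 knockout cells 1340, 874.4 and 865.7 CPM, and AGO1/2/3 knockout cells 1601, 1595 and 1685 CPM. All AGO1/2/3 and all AGO2 knockout replicates lay above all wild-type replicates, while the AGO1 and AGO1/2 knockout replicates overlapped them. TUBB was called higher in AGO1/2/3 knockout cells (log2 fold change 1.21, SE 0.31, adjusted p = 0.00609 by edgeR), and without the 2 libraries that stand apart the value was 0.87 (adjusted p = 0.00145). In AGO2 knockout cells the log2 fold change of 0.87 (SE 0.31) gave an adjusted p of 0.0605 by edgeR. DESeq2's Wald test called it there (adjusted p = 0.0258), as did edgeR without AGO1 knockout replicate 1, without AGO1 knockout replicate 3 or without wild-type replicate 3 (adjusted p = 0.0264 to 0.0441), and without both libraries that stand apart it was 0.55 (adjusted p = 0.0575). A different quantification mode is named in the AGO2 knockout files alone, so that mode and the AGO2 genotype cannot be told apart.

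TUBB4B (chr9:137241287-137243707), the other abundant beta-tubulin and a common constituent of cilia and flagella as well as of cytoplasmic microtubules, showed a similar pattern. Its wild-type replicates had 196.2, 143.3 and 298.3 CPM and its AGO1/2/3 knockout replicates 486.0, 462.4 and 515.8 CPM, without overlap. The log2 fold change was 1.20 (SE 0.32, adjusted p = 0.00792 by edgeR). The AGO1/2 knockout replicates (494.5, 276.3 and 260.0 CPM) reached from within the wild-type range to the level of AGO1/2/3 knockout cells, and their log2 fold change was 0.69 (adjusted p = 0.167 by edgeR).

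TUBB6 (chr18:12307669-12344320) had 48.9, 40.9 and 61.1 CPM in wild-type cells and 114.8, 134.1 and 141.7 CPM in AGO1/2/3 knockout cells. It was called higher in the latter (log2 fold change 1.37, SE 0.22, adjusted p = 0.00012 by edgeR), and in the other 3 knockout lines its replicates overlapped the wild-type range. Of its 31-base windows 93.2% are its own, so that few of its reads could be shared.

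TUBB3 (chr16:89921392-89938761), the isotype used as a marker of neurons and often raised in carcinomas, had 65.2, 33.1 and 71.1 CPM in wild-type cells. Its levels were 48.0, 42.6 and 41.7 CPM in AGO1 knockout cells, 50.7, 44.5 and 49.4 CPM in AGO2 knockout cells, 101.7, 88.0 and 70.7 CPM in AGO1/2 knockout cells, and 120.6, 121.6 and 132.0 CPM in AGO1/2/3 knockout cells. The single knockouts thus lay inside the wild-type range, the AGO1/2 knockout reached from its top upward, and the AGO1/2/3 knockout lay above it. The log2 fold change in AGO1/2/3 knockout cells was 1.14 (SE 0.21, adjusted p = 0.000434 by edgeR), and that in AGO1/2 knockout cells was 0.62 (SE 0.21), just outside the threshold (adjusted p = 0.0529 by edgeR).
In AGO1/2 knockout cells TUBB3 was called with DESeq2's Wald test (adjusted p = 0.0395), with the replicate number as a block (0.65, adjusted p = 0.0433 by edgeR), and without AGO1/2 knockout replicate 3 or wild-type replicate 3 (adjusted p = 0.0232 to 0.0407 by edgeR). Without the 2 libraries that stand apart it was 0.32 there (adjusted p = 0.117), and TUBB3 was instead called lower in both single knockouts (AGO1: -0.58, adjusted p = 0.0244, AGO2: -0.52, adjusted p = 0.0211 by edgeR). Leaving out wild-type replicate 2 alone gave the same calls of TUBB3 in the AGO1 (adjusted p = 0.0115) and AGO2 (adjusted p = 0.03) knockout cells.

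The largest differences among the isotypes were those of TUBB2A (chr6:3153497-3157544, minus strand) and its neighbour TUBB2B (chr6:3223324-3231730, minus strand), which make up much of the beta-tubulin of neurons. TUBB2A had 19.9, 18.1 and 25.1 CPM in wild-type cells, 24.1, 22.2 and 16.2 CPM in AGO1 knockout cells, 20.8, 30.1 and 24.3 CPM in AGO2 knockout cells, 49.1, 33.2 and 28.7 CPM in AGO1/2 knockout cells, and 217.2, 230.6 and 251.0 CPM in AGO1/2/3 knockout cells. The single knockouts overlapped wild-type cells, and all AGO1/2 and all AGO1/2/3 knockout replicates lay above them. TUBB2A was called higher in AGO1/2 knockout cells (log2 fold change 0.82, SE 0.20, adjusted p = 0.0107 by edgeR) and in AGO1/2/3 knockout cells (3.47, SE 0.22, adjusted p = 1.28e-08 by edgeR), an 11.1-fold difference.
The call in AGO1/2 knockout cells was lost without AGO1/2 knockout replicate 1 (0.54, adjusted p = 0.0759 by edgeR) and with only the 6 samples of the 2 lines (0.80, adjusted p = 0.0543). Its value in AGO1/2/3 knockout cells ranged from 3.33 to 3.59 over 25 alternatives and was called in each.

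TUBB2B was the rarest isotype, at 0.595, 0.414 and 0.633 CPM in wild-type cells, from 19, 13 and 21 counts. In AGO1/2/3 knockout cells it had 5.38, 5.61 and 6.78 CPM, from 211, 160 and 200 counts, above all replicates of every other line. Its log2 fold change was 3.42 (SE 0.29, adjusted p = 2.92e-07 by edgeR), a size close to that of TUBB2A. Since 52.7% of the 31-base windows of TUBB2B occur in TUBB2A, which had 232.9 CPM in AGO1/2/3 knockout cells on average, how much of the TUBB2B level comes from reads of TUBB2A was not tested. With the counts of the pseudogene TUBB2BP1 added to TUBB2B (15% to 83.3% of its counts, depending on the sample), the log2 fold change was 3.04 (adjusted p = 1.22e-07 by edgeR).

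**Figure D3:**
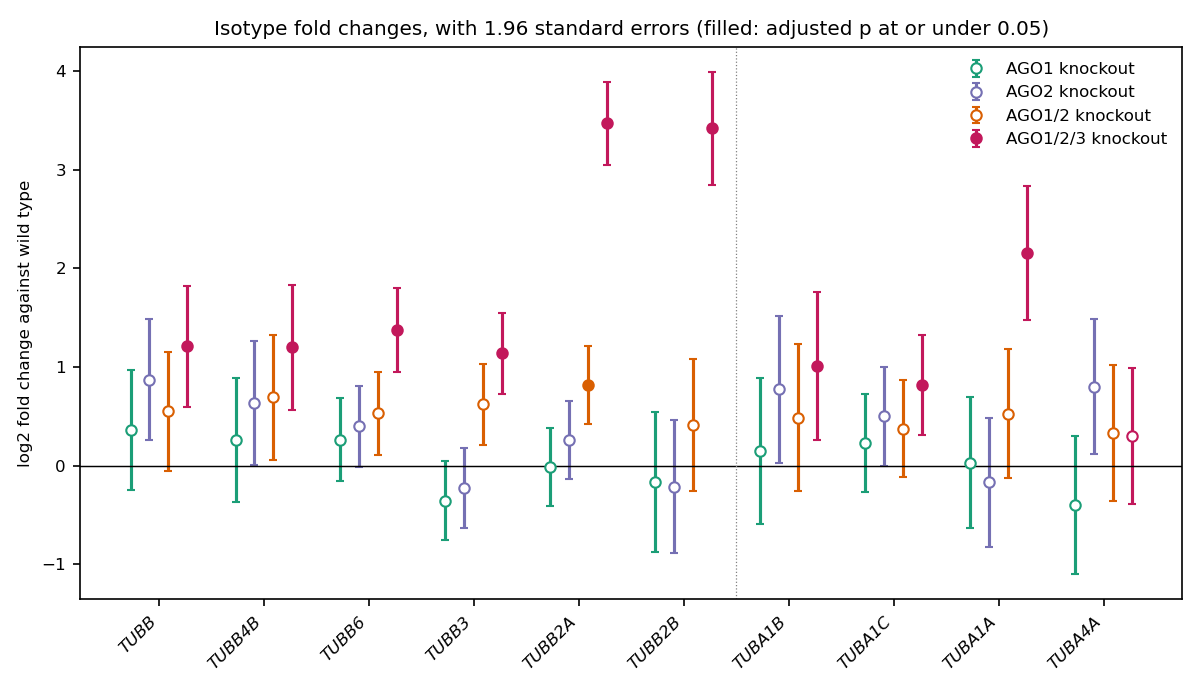
Log2 fold change of each isotype (x axis) against wild-type cells (y axis) in the 4 knockout lines. Error bars are 95% intervals from the standard error and a normal quantile, which are narrower than edgeR's test implies. Filled symbols passed an adjusted p of 0.05 by edgeR. In AGO1/2/3 knockout cells 9 of 10 isotypes are filled, with TUBB2A at 3.47, TUBB2B at 3.42 and TUBA1A at 2.16, and in AGO1/2 knockout cells TUBB2A alone is.

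Among the alpha-tubulins, TUBA1A (chr12:49184686-49189080, minus strand), the main alpha-tubulin of the developing brain, differed most. Its wild-type replicates had 33.1, 9.72 and 34.8 CPM, replicate 2 being lowest, and its AGO1/2/3 knockout replicates 118.1, 121.1 and 106.8 CPM. The AGO1 (20.3 to 30.5 CPM) and AGO2 (17.7 to 30.3 CPM) knockout replicates lay within the wild-type range, and those of AGO1/2 knockout cells (32.9 to 44.5 CPM) overlapped its top. Without the 2 libraries that stand apart, TUBA1A was called lower in AGO2 knockout cells (-0.58, adjusted p = 0.0495 by edgeR), against -0.17 (adjusted p = 0.747) with them. The log2 fold change in AGO1/2/3 knockout cells was 2.16 (SE 0.34, adjusted p = 0.000135 by edgeR), and without the 2 libraries that stand apart it was 1.72 (adjusted p = 5e-06).

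TUBA1B (chr12:49127782-49131397, minus strand), the general alpha-tubulin of dividing cells, had 791.0, 290.7 and 851.5 CPM in wild-type cells and 1227, 1268 and 1399 CPM in AGO1/2/3 knockout cells. Although these replicates did not overlap, the call was marginal, with a log2 fold change of 1.01 (SE 0.38, adjusted p = 0.0469 by edgeR). It was lost in 15 of 25 alternatives. Among these were DESeq2's Wald test (adjusted p = 0.0527), total counts in place of TMM (0.87, adjusted p = 0.0807 by edgeR), leaving out wild-type replicate 1 (adjusted p = 0.0569) or 2 (0.63, adjusted p = 0.166), leaving out any AGO1/2/3 knockout replicate (adjusted p = 0.0831 to 0.131), and leaving out AGO1/2 knockout replicate 2 or 3, AGO1 knockout replicate 2 or any AGO2 knockout replicate. Without both libraries that stand apart the call stood, at 0.62 (adjusted p = 0.027).

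TUBA1C (chr12:49188736-49274600, plus strand), another widely expressed alpha-tubulin, had 270.6, 212.3 and 308.6 CPM in wild-type cells and 456.6, 447.2 and 489.0 CPM in AGO1/2/3 knockout cells. The smallest of the called differences was its log2 fold change of 0.82 (SE 0.26, adjusted p = 0.0185 by edgeR). The call was lost without AGO1/2/3 knockout replicate 3 (0.73, adjusted p = 0.0707), without wild-type replicate 1 (0.81, adjusted p = 0.0507) and without wild-type replicate 2 (0.66, adjusted p = 0.0825 by edgeR).

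TUBA4A (chr2:219249710-219277902, minus strand) was the exception. Its wild-type replicates (14.0, 6.41 and 21.7 CPM) enclosed the AGO1/2/3 knockout replicates (14.9, 18.0 and 19.0 CPM), and the log2 fold change of 0.30 (95% interval -0.39 to 0.99) was not called (adjusted p = 0.54 by edgeR). Its highest levels were those of AGO2 knockout cells, with 20.6, 26.9 and 25.9 CPM, while AGO1 knockout cells had 15.8, 9.14 and 7.04 CPM. This difference between the single knockouts was called (log2 fold change 1.20, SE 0.36, adjusted p = 0.03 by edgeR), the sole isotype called between them, where 18.4% of all genes were called. The call was lost without AGO1 knockout replicate 2, AGO1 knockout replicate 3, AGO2 knockout replicate 2 or AGO2 knockout replicate 3 (0.97 to 1.12, adjusted p = 0.0955 to 0.129 by edgeR).

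By line, 9 of the 10 isotypes were called higher and 0 lower in AGO1/2/3 knockout cells. Of all genes tested, 40.1% were called there in either direction and 20.3% were called higher. The 9 isotypes were also those in which all 3 knockout replicates lay above all 3 wild-type replicates, as was the case for 26.3% of all genes. The median log2 fold change of the 10 isotypes was 1.20 and that of all genes -0.01. In AGO1/2 knockout cells 1 isotype, TUBB2A, was called, and it was higher, where 16.7% of all genes were called and 8.37% were called higher. All 10 isotypes had positive log2 fold changes in that line, with a median of 0.53 (0.01 for all genes), and 4 had an unadjusted p under 0.05. A share of 1 in 10 lies near that of all genes.

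In AGO2 knockout cells edgeR called 0 isotypes, where 19.3% of all genes were called, with 2 isotypes (TUBB and TUBA4A) at an unadjusted p under 0.05 and TUBB called by DESeq2. The median log2 fold change was 0.45 (-0.02 for all genes), from -0.23 for TUBB3 to 0.87 for TUBB. In AGO1 knockout cells edgeR called 0 isotypes, where 8.68% of all genes were called, with 0 at an unadjusted p under 0.05 and 0 called by DESeq2. The median was 0.09 (-0.01 for all genes), from -0.40 for TUBA4A to 0.36 for TUBB. The intervals for single isotypes in AGO1 knockout cells were wide, reaching 0.97 for TUBB and 0.89 for TUBA1B, above their log2 fold changes in AGO1/2 knockout cells. That of TUBB2A (-0.41 to 0.38) lay below its value there.
With the sample score on that first component as a covariate, 6 isotypes were called higher in AGO2, 7 in AGO1/2 and all 10 in AGO1/2/3 knockout cells, and TUBB in AGO1 knockout cells, against 0, 1, 9 and 0 without it. Tubulin RNA itself moved with that component.

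Knockout lines were also compared with each other, using the same fit. Between AGO1/2/3 and AGO1/2 knockout cells, which differ in AGO3 as labelled, TUBB2A (2.65, SE 0.21, adjusted p = 5.93e-07), TUBB2B (3.02, SE 0.28, adjusted p = 2.9e-06), TUBA1A (1.63, SE 0.34, adjusted p = 0.00262) and TUBB6 (0.84, SE 0.21, adjusted p = 0.0102 by edgeR) were called higher in the former. These were 4 of 10 isotypes, where 22.0% of all genes were called. TUBB (0.66, adjusted p = 0.147), TUBB3 (0.52, adjusted p = 0.0852) and TUBA1C (0.44, adjusted p = 0.247 by edgeR) had positive values that did not pass. TUBB6 lost its call without AGO1/2/3 knockout replicate 3, AGO1/2 knockout replicate 2 or AGO1/2 knockout replicate 3 (adjusted p = 0.0548 to 0.0665), and without both libraries that stand apart TUBB (0.65, adjusted p = 0.00673), TUBB3 (0.51, adjusted p = 0.00461) and TUBA1B (0.51, adjusted p = 0.0483 by edgeR) were called too.
Against AGO1 knockout cells 7 isotypes were called higher in AGO1/2/3 knockout cells (40.6% of all genes called), all but TUBA1B, TUBA1C and TUBA4A. Of these calls that of TUBB (0.85, adjusted p = 0.0399) was lost in 11 of the 15 fits that left out a sample, and that of TUBB4B (0.94, adjusted p = 0.0295) in 5, among them those without AGO1 knockout replicate 3 (0.52 and 0.58, adjusted p = 0.195 and 0.142 by edgeR). TUBB4B also lost its call without both libraries that stand apart (0.58, adjusted p = 0.0731 by edgeR). Without AGO1 knockout replicate 1 all 10 were called. Against AGO2 knockout cells 5 were (40.3% of all genes called), namely TUBB2A, TUBB2B, TUBA1A, TUBB6 and TUBB3, while the log2 fold changes of TUBB (0.33, adjusted p = 0.426) and TUBA1B (0.23, adjusted p = 0.667 by edgeR) were small. AGO1/2 knockout cells had higher TUBB2A (0.83, adjusted p = 0.0082) and TUBB3 (0.98, adjusted p = 0.00343 by edgeR) than AGO1 knockout cells (19.5% of all genes called), and higher TUBB3 (0.85, adjusted p = 0.00847 by edgeR) than AGO2 knockout cells (23.9% of all genes called). The call of TUBB2A between AGO1/2 and AGO1 knockout cells was lost without AGO1/2 knockout replicate 1 (0.55, adjusted p = 0.0643). Between AGO1/2 and AGO2 knockout cells TUBB2A (0.55, adjusted p = 0.0265) and TUBA1A (0.68, adjusted p = 0.00538 by edgeR) were called too without both libraries that stand apart.

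The question of whether loss of AGO2 acts alike with and without AGO1 was addressed by an interaction term over the 4 lines. Of the 10 isotypes 1, TUBB3, was called (19.7% of all genes were). TUBB3 differed by -0.23 on the log2 scale between AGO2 knockout and wild-type cells and by 0.98 between AGO1/2 and AGO1 knockout cells, a difference of 1.21 (SE 0.29, adjusted p = 0.0103 by edgeR). TUBB3 was called in all 16 alternatives counted for this term, from 1.02 to 1.49. These were other size factors, total counts, a replicate block, each sample of the 4 lines left out, and both libraries left out. The covariate, other filters and added pseudogene counts were not among them. TUBA1A (0.66, adjusted p = 0.351) was called too without both libraries that stand apart (0.87, adjusted p = 0.0235) and without wild-type replicate 2 (1.06, adjusted p = 0.0175 by edgeR). In the main fit the value of this term was -0.69 for TUBB (normal 95% interval -1.55 to 0.17) and 0.57 for TUBB2A (0.02 to 1.13). TUBB2A was not called (unadjusted p = 0.0609, adjusted p = 0.17 by edgeR). The intervals use a normal quantile and are narrower than edgeR's test implies.

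The isotypes were compared with each other per kilobase of canonical transcript (CPM per kb). In wild-type cells the order was TUBA1B (396 CPM per kb), TUBB (280), TUBB4B (136), TUBA1C (93.5), TUBB3 (33.1), TUBB6 (26.8), TUBA1A (15.5), TUBB2A (13.0), TUBA4A (6.85) and TUBB2B (0.285). Neighbours from TUBA1B to TUBA1C overlapped between replicates, as did TUBB3 with TUBB6 and TUBA1A with TUBB2A, while TUBA1C and TUBB3, TUBB6 and TUBA1A, TUBB2A and TUBA4A, and TUBA4A and TUBB2B did not. TUBB2A stood at 144 CPM per kb in AGO1/2/3 knockout cells, just under TUBA1C at 164 and without overlap with it, and TUBB3 (73.1), TUBB6 (69.3) and TUBA1A (69.0) overlapped each other in turn. With the length of all annotated exons in place of the canonical transcript, TUBB ranked above TUBA1B in the 4 knockout lines, and TUBB3 ranked below TUBB6 in all 5, so that these orders depend on the length used. TUBB4B and TUBA1C stayed in the third and the fourth place by both lengths in every line.

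**Figure D4:**
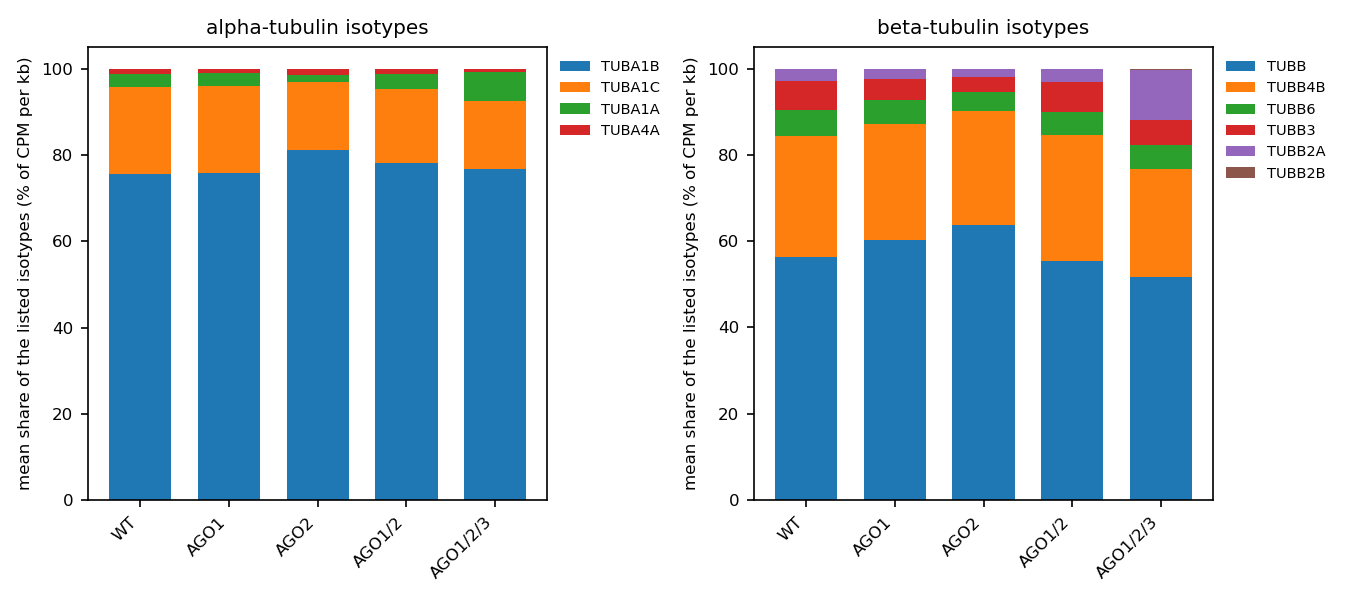
Mean share of each isotype in the summed CPM per kb of its family (percent, y axis) in the 5 lines (x axis), for the 4 alpha-tubulins (left) and the 6 beta-tubulins (right). TUBB2A takes 11.5% of the beta-tubulin RNA in AGO1/2/3 knockout cells and 2.85% in wild-type cells, and TUBB takes 51.8% in the former and 56.3% in the latter.

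The mix of isotypes therefore differed between lines. TUBB2A made up 2.34% to 3.82% of the listed beta-tubulin RNA per length among wild-type samples, and 11% to 11.8% among AGO1/2/3 knockout samples. TUBB2B went from 0.0507% to 0.0736% in the former to 0.23% to 0.269% in the latter. TUBA1A made up 2.21% to 3.25% of the alpha-tubulin RNA in wild-type and 5.78% to 7.11% in AGO1/2/3 knockout samples, and TUBA4A 1.13% to 1.59% and 0.732% to 0.863%. TUBB3, though its level was called higher, made up 6.42% to 7.29% of beta-tubulin RNA in the former and 5.81% to 5.90% in the latter. None of these 5 pairs of ranges overlapped, and no test was made of them. The ranges of the remaining isotypes, TUBB, TUBB4B, TUBB6, TUBA1B and TUBA1C, did overlap between wild-type and AGO1/2/3 knockout samples. TUBA1B kept the largest share of alpha-tubulin in every line, at 75.6% to 81.2% on average, and TUBB the largest of beta-tubulin, at 51.8% to 63.8%.
The summed CPM of the 6 beta-tubulins was 1140, 609.9 and 1383 in wild-type cells and 2545, 2550 and 2733 in AGO1/2/3 knockout cells, a log2 ratio of the means of 1.32. The summed CPM of the 4 alpha-tubulins was 1109, 519.2 and 1216 in the former and 1816, 1854 and 2013 in the latter, a log2 ratio of 1.0. The ratio of summed beta- to alpha-tubulin CPM was 1.03 to 1.17 in wild-type and 1.36 to 1.40 in AGO1/2/3 knockout samples, and 1.14 to 1.37 in the AGO1 knockout samples.

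**Figure D5:**
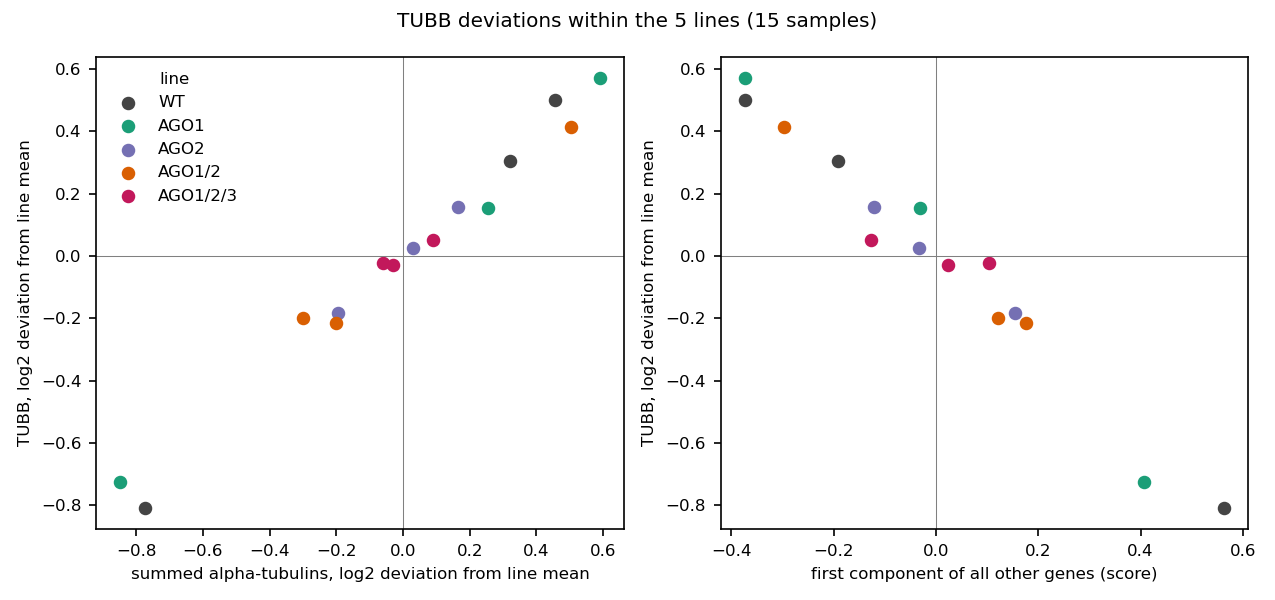
Deviation of TUBB from its line mean (log2, y axis) against that of the summed alpha-tubulins (log2, left) and against the first component of the deviations of all other tested genes (score, right), for the 15 samples coloured by line. Pearson's r is 0.99 on the left and -0.98 on the right, and wild-type replicate 2 and AGO1 knockout replicate 3 lie at the low end of TUBB.

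TUBB varied widely between replicates of some lines, which was known and was a reason for choosing these genes, so that its spread is given as a description. The highest replicate had 2.48-fold the level of the lowest in wild-type cells, 2.46-fold in AGO1 knockout cells and 1.55-fold in AGO1/2 knockout cells, against 1.27-fold in AGO2 and 1.06-fold in AGO1/2/3 knockout cells. The SD of TUBB around its line means was 0.468 on the log2 scale, larger than that of 97.0% of the 1898 genes averaging 100 CPM or more, whose median was 0.152. TUBB4B (0.474), TUBA1B (0.589) and TUBA1C (0.372) were also above 92% of these genes.
The deviations of TUBB were compared with those of the summed isotypes, in which TUBA1B, TUBA1C and TUBB4B weigh most. Single isotypes could depart from TUBB. TUBA1A ran against TUBB in AGO2 knockout cells (deviations of 0.44, -0.34 and -0.10 on the log2 scale, those of TUBB being -0.18, 0.16 and 0.03), TUBB3 in replicates 1 and 2 of the same line (0.08 and -0.11), and TUBB2B in replicates 2 and 3 of AGO1 knockout cells (-0.83 and 0.25, with TUBB at 0.16 and -0.73). Over the 15 samples, the deviation of TUBB from its line mean was correlated with that of the summed alpha-tubulins (Pearson r = 0.99, Spearman rho = 0.98, permutation p within lines = 0.00046 and 0.00062) and with that of the summed other beta-tubulins (r = 0.95, rho = 0.97, permutation p = 0.0003 and 0.00045). It was inversely correlated with the first component of the deviations of all genes but TUBB, which took 25.5% of their variance (r = -0.98, rho = -0.97, permutation p = 0.00021 for both). The adjusted p over the 3 relations was 0.00046 or lower for r and 0.00062 for rho, from two-sided permutation tests. Without the 2 samples farthest from the median of the x measure r was 0.99, 0.92 and -0.97. The measures come from the same libraries and share their depth and normalization. Because TUBB was chosen with its spread known, these p-values rest on the deviations behind that choice and are not separate support.

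The genes outside the tubulin family whose log2 CPM most resembled TUBB over the 15 samples, of 9908 that averaged 10 CPM or more, were GINS1 (r = 0.981), CDC25A (0.977), SUV39H1 (0.976), MELK (0.974) and TACC3 (0.974). GINS1 is part of the replicative helicase, CDC25A a phosphatase that drives the cell cycle, and TACC3 a spindle protein. These values are a description, and include differences between lines.
Genes of DNA replication and of the amino-acid stress response, lists chosen after the values were seen, are given beside these results because they differed between replicates. The summed level of 9 replication genes (MCM2 to MCM7, PCNA, TYMS and RRM2) was 557.2 CPM in wild-type replicate 2 against 1631 and 1668 CPM in the other wild-type replicates, and 1007 CPM in AGO1 knockout replicate 3 against 2173 and 1733 CPM. It was 2174 to 2610 CPM in AGO2 and 1847 to 1915 CPM in AGO1/2/3 knockout samples. The summed level of 5 stress genes (ASNS, DDIT3, TRIB3, CHAC1 and SESN2) was 515.3, 789.0 and 114.4 CPM in wild-type and 48.5 to 51.9 CPM in AGO1/2/3 knockout samples. It did not single out the same libraries, being 150.1, 632.5 and 500.8 CPM in AGO1 knockout and 81.0, 96.3 and 451.2 CPM in AGO1/2 knockout samples. In AGO1/2/3 knockout cells 0 of the 9 replication genes were called, by edgeR, with 1 at an unadjusted p under 0.05 and 1 called by DESeq2, and a median log2 fold change of 0.56, while all 5 stress genes were called lower (40.1% of all genes called). In AGO2 knockout cells 2 replication genes were called higher by edgeR and all 5 stress genes lower (19.3% of all genes called). All 9 replication genes had an unadjusted p under 0.05 by edgeR there, 5 were called by DESeq2, and their median log2 fold change was 0.9. The part of either in the tubulin results was not tested.

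Matches to miRNA seeds were searched in the canonical 3'-UTRs, since AGO proteins act through such sites. The search covered 12 miRNA families chosen by hand, with 1 miRNA each, by the 7 bases complementary to seed bases 2 to 8, on the RNA strand. The 3 miRNAs with a match in TUBB2A, TUBB2B or TUBB are set out from RefSeq (GRCh38.p14) with the seed in capitals.
hsa-let-7a-5p: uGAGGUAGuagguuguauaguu
hsa-miR-15a-5p: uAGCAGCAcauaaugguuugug
hsa-miR-29a-3p: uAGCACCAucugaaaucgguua
The matching stretches of the isotypes follow on their own strand, GRCh38, with the 7 complementary bases in capitals.
TUBB2A, miR-29a: ttctacttgtaaactaTGGTGCTc
TUBB2B, miR-29a: gtgtgcgctgggtctcTGGTGCTc
TUBB, let-7a: ccttccctttccaactCTACCTCc
TUBB, miR-15a: tattttatgttgaactTGCTGCTt
They lie at chr6:3153780-3153803, chr6:3224618-3224641, chr6:30725011-30725034 and chr6:30725338-30725361, in that order, those of TUBB2A and TUBB2B on the minus strand and both of TUBB on the plus strand.

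TUBB2A and TUBB2B were the only isotypes with the miR-29 match TGGTGCT, at base 76 of the 197 bases of the TUBB2A 3'-UTR and at base 126 of the 474 bases of the TUBB2B 3'-UTR. These 2 neighbouring genes have similar 3'-UTRs (77.5% identical aligned bases), so that they are not separate cases. Of all 3'-UTRs at least as long, cut to the same length, 2.1% and 4.8% held this match. TUBB, whose 3'-UTR has 1025 bases, had the let-7 match CTACCTC (5.8%) and the miR-15/16 match TGCTGCT (16.6%). TUBA1C had the miR-24 match CTGAGCC (14.0%). TUBB3, TUBB4B, TUBB6 and TUBA1B had none of the 12 matches in 3'-UTRs of 151 to 486 bases. TUBA4A had 6 matches to 3 of the miRNAs, 4 of them to miR-15/16, of which 3 overlap each other. A match is a description of the letters, and whether AGO proteins bound these stretches was not analysed here. A relation of the matches to the differences between lines was not tested.

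Other genes of the tubulin system were counted from lists that were chosen with earlier results of these data known. Of 12 further tubulin genes 6 passed the filter, and in AGO1/2/3 knockout cells 2 were called higher and 1 lower (40.1% of all genes called), with a median log2 fold change of -0.10. These were TUBB4A, a beta-tubulin of oligodendrocytes (18.8 ± 8.26 CPM in wild-type and 31.2 ± 0.753 CPM in AGO1/2/3 knockout cells, SD, n = 3, log2 fold change 0.73), TUBG1, the gamma-tubulin that nucleates microtubules (46.7 ± 10.4 and 73.3 ± 5.63 CPM, 0.65), and TUBE1, the epsilon-tubulin of centrioles (46.4 ± 28.1 and 11.8 ± 1.11 CPM, -1.98). Their adjusted p was 0.0269, 0.0117 and 0.00117 by edgeR.
Of the 20 tested genes listed under tubulin folding, 2 were called higher and 5 lower in the same line, with a median of -0.04, a share near the 40.1% of all genes called. The tubulin cofactor TBCD, which assembles the dimer, differed by 0.55 (adjusted p = 0.0462), and TBCEL, a gene resembling the cofactor gene TBCE, also by 0.55 (adjusted p = 0.000786 by edgeR). Prefoldin, which hands unfolded tubulin to the chaperonin, had lower RNA of PFDN2 (-1.18, adjusted p = 0.00124) and PFDN4 (-0.86, adjusted p = 1.67e-05 by edgeR).

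Of the 12 genes of tubulin RNA autoregulation, 3 were called higher and 3 lower in AGO1/2/3 knockout cells (40.1% of all genes called), with a median of 0.18. SCAPER, the adaptor between TTC5 and the deadenylase, was higher (16 ± 2.62 CPM in wild-type and 30.8 ± 1.05 CPM in AGO1/2/3 knockout cells, SD, n = 3, log2 fold change 0.94, adjusted p = 2.1e-05), and the CCR4-NOT subunit CNOT11 was higher by 0.39 (adjusted p = 0.00459 by edgeR). TTC5 itself was lower by a small amount (25.6 CPM in wild-type and 21.7 CPM in AGO1/2/3 knockout cells, log2 fold change -0.24, adjusted p = 0.0343), as were CNOT3 (-0.38, adjusted p = 0.00632) and CNOT6L (-0.37, adjusted p = 0.0204 by edgeR), a subunit and a deadenylase of CCR4-NOT. Of these genes 3 were called higher in AGO2 knockout cells (19.3% of all genes called), namely TTC5 (0.27, adjusted p = 0.0385), CNOT11 (0.42, adjusted p = 0.00981) and CNOT9 (0.45, adjusted p = 0.0389 by edgeR). In AGO1/2 knockout cells 1 (SCAPER) was called, and it was higher (16.7% of all genes called). With AGO1 alone lost 0 of 12 were called by edgeR (8.68% of all genes called), with 0 at an unadjusted p under 0.05 and 0 called by DESeq2.
Of the 26 tested genes that modify tubulin, 3 were called higher and 5 lower in AGO1/2/3 knockout cells (40.1% of all genes called), with a median of 0.03. The polyglutamylase TTLL7 (0.83, adjusted p = 0.000187) and TPGS2, a subunit of a polyglutamylase complex (0.88, adjusted p = 0.000914), were higher, and the glycylase TTLL3 (-0.87, adjusted p = 0.0191) and NICN1 (-0.79, adjusted p = 0.0109 by edgeR) were lower.

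Of the 39 tested genes of microtubule dynamics, 19 were called higher and 8 lower in AGO1/2/3 knockout cells (40.1% of all genes called, 20.3% higher), with a median of 0.39. The largest difference was that of DCLK1, a doublecortin-like kinase that binds microtubules, at 2.64 ± 1.24 CPM in wild-type and 339.1 ± 29.96 CPM in AGO1/2/3 knockout cells (SD, n = 3, log2 fold change 7.0, adjusted p = 3.18e-10 by edgeR). DCLK1 was also higher in AGO1/2 knockout cells (41.1 CPM, 3.96, adjusted p = 1.28e-07) and was lower in AGO2 knockout cells (0.195 CPM, -3.72, adjusted p = 4.05e-05 by edgeR). KATNAL1, a severing enzyme of the katanin family, followed (30.4 and 171.8 CPM, 2.5, adjusted p = 4.79e-07). MAP2, a neuronal microtubule-associated protein, was lower (17.3 and 5.70 CPM, -1.60, adjusted p = 0.000383), as was MAP7, an epithelial microtubule-associated protein (62.9 and 22.3 CPM, -1.50, adjusted p = 1.55e-08 by edgeR). In this list 9 genes were called higher and 4 lower in AGO1/2 knockout cells (16.7% of all genes called), against 4 and 6 with AGO2 alone lost (19.3%) and 1 and 3 with AGO1 alone lost (8.68%).

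Since TUBB2A, TUBB2B, TUBB3 and TUBA1A are best known from neurons, markers of neurons were read in the same samples. Of 8 markers 4 were tested and 1 was called in AGO1/2/3 knockout cells, where 40.1% of all genes were called. This was SYT1, which was lower (-1.19, adjusted p = 0.00608 by edgeR). ELAVL4, GAP43, INA and NEFL did not pass 0.34 CPM in any sample, and the summed level of the 8 markers was 91.4 to 147 CPM in wild-type and 54.8 to 60.3 CPM in AGO1/2/3 knockout samples. SYT1 made up most of this sum, at 125.7 CPM in wild-type and 55.0 CPM in AGO1/2/3 knockout cells on average. The other tested markers were not called there. SNAP25 had a positive value (0.92, adjusted p = 0.106), and RBFOX3 (-0.41, adjusted p = 0.198) and ELAVL3 (-0.41, adjusted p = 0.4 by edgeR) had negative ones. Of the epithelial markers, CDH1 was lower in AGO1/2/3 knockout cells (97.7 and 8.57 CPM, -3.51, adjusted p = 7.51e-08) as was EPCAM (212.7 and 63.6 CPM, -1.74, adjusted p = 6.02e-09 by edgeR). Of the 7 tested epithelial markers 4 were called lower and 1 higher (40.1% of all genes called). The summed levels of fibroblast markers (23.7 to 31 CPM in wild-type and 27.5 to 30.5 CPM in AGO1/2/3 knockout samples) and of endothelial markers (2.68 to 3.28 and 2.61 to 2.87 CPM) overlapped. That of leukocyte markers was 1.15 to 1.25 CPM in wild-type and 7.68 to 9.15 CPM in AGO1/2/3 knockout samples, owing to LYZ, while CD3E stayed under 0.04 CPM.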

How the data were processed

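RNAseq data from 15 samples of HCT116 cells were used, 5 lines with 3 biological replicates each. Per the paper's methods and the submitters' processing notes, the authors filtered the reads, aligned them to hg38 with STAR and quantified them with Salmon. The values deposited by the authors are estimated counts per gene that Salmon assigned, one file per sample, without scaling for depth. The STAR and Salmon versions differ between the sources and are not given here.

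Estimated counts were rounded, filtered with edgeR's filterByExpr and normalized by TMM. A model with a mean for each line was fitted to all 15 samples with edgeR 4.0.16 (R 4.3.3, quasi-likelihood test, Benjamini-Hochberg adjustment over 22842 genes). DESeq2 1.42.0 was an alternative. The fit was tested on simulated data in which 200 genes were changed in AGO1/2/3 knockout cells. Of these edgeR recovered 140, with 9 false calls, and DESeq2 147, with 29. Of the 107 genes changed 2-fold edgeR recovered 58, so that a 2-fold difference could go uncalled there. The simulation differed from the data, since it changed 200 of 22842 genes and drew each gene independently. In the data 40.1% of genes were called in AGO1/2/3 knockout cells, and deviations were shared between genes. The recovery and false calls therefore need not hold for the data. The 95% intervals are from the standard error and a normal quantile, and are therefore narrower than the quasi-likelihood test implies. Permutation tests used 100000 permutations within lines. Sequences came from GENCODE v44 and RefSeq. Seed matches and levels were computed with Python 3.11.15.

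The isotypes and gene lists were chosen with earlier results of these data known. Named genes were the isotypes, the 3 targeted AGO genes, the 5 genes most like TUBB and, per list, the called genes with at least 1 CPM that had the 2 largest increases and the 2 largest decreases in AGO1/2/3 knockout cells. TTC5, CNOT9, the markers and the replication and stress genes are named outside this rule, after their values were seen.

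Alternatives were other size factors, filters, tools, fewer samples, a replicate block, a covariate, a 2-fold threshold, added pseudogene counts and each sample left out. The eCLIP samples were not analysed here. Some seed matches are not reported.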

Additional observations from a re-analysis of the deposited data

Results flagged for a closer look

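The effect of AGO2 loss on TUBB3 differed between cells with and without AGO1, by an interaction term. TUBB3 was 48.2 CPM in AGO2 knockout and 56.5 CPM in wild-type cells, and 86.8 CPM in AGO1/2 and 44.1 CPM in AGO1 knockout cells. The difference of the log2 fold changes was 1.21 (SE 0.29, adjusted p = 0.0103 by edgeR), with an adjusted p of up to 0.0342 over 16 alternatives. Each line stands for its genotype, and a different quantification mode is named in the files of AGO2 knockout cells, so that these cannot be told apart from the effect of AGO2 loss.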

How the results depend on the processing

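In AGO1/2/3 knockout cells 9 isotypes were called higher in the reported fit, 7 to 9 with a sample left out, and TUBB, TUBB2A, TUBB3, TUBB4B, TUBB6 and TUBA1A were called in all 25 alternatives. TUBB2B was called in the 24 that could be fitted. Against wild-type cells, calls higher were 0 to 2 (AGO2) and 0 to 2 (AGO1/2) and calls lower 0 to 1 (AGO1) and 0 to 1 (AGO2) with a sample left out. With the first component as covariate, calls higher were 1 (AGO1), 6 (AGO2) and 7 (AGO1/2). Without a filter on low counts they were 4 (AGO2) and 4 (AGO1/2), and by DESeq2's Wald test 1 (AGO2) and 2 (AGO1/2). In AGO1/2 knockout cells 0 were called with only the 6 samples or with at least 2-fold, and 2 with the replicate block, which added TUBB3 and changed no other call against wild-type cells. Deviations of samples with the same number correlated at -0.218 to 0.291, with a mean of -0.007 against 0.003 for other pairs. Whether samples with the same number were prepared together cannot be told from these values. Without both libraries that stand apart, an alternative chosen after seeing the data, calls lower were 1 (AGO1) and 2 (AGO2), and the interaction term called 2 (TUBB3 and TUBA1A).

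Between knockout lines, calls higher with a sample left out were 0 to 1 for AGO2 against AGO1, 1 to 2 for AGO1/2 against AGO1, 1 to 3 for AGO1/2 against AGO2, 5 to 10 for AGO1/2/3 against AGO1, 5 for AGO1/2/3 against AGO2 and 3 to 5 for AGO1/2/3 against AGO1/2, and 1 to 2 for the interaction. With the covariate they were 4 for AGO2 against AGO1, 6 for AGO1/2 against AGO1, 2 higher and 3 lower for AGO1/2 against AGO2, 1 lower for AGO1/2/3 against AGO2 and 9 for AGO1/2/3 against AGO1/2. AGO1/2 against AGO2 gave 2 with at least 10 counts, 2 without a filter, 2 with total counts, 3 without both libraries and 0 at 2-fold. AGO1/2 against AGO1 gave 0 at 2-fold, and AGO1/2/3 against AGO1/2 gave 7 without both libraries.

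No reversal touched a called value. In AGO1 knockout cells TUBB2A (-0.01) became 0.06 without both libraries and 0.01 without a filter (-0.13 to 0.16 with a sample left out), and TUBA1A (0.03) became -0.19 without both libraries and -0.05 with total counts (-0.36 to 0.30). TUBB2B ranged from -0.52 to 0.17, TUBB4B from -0.10 to 0.59, TUBA1B from -0.21 to 0.52 and TUBA4A from -0.80 to 0.06 with a sample left out. TUBA1A in AGO2 knockout cells ranged from -0.58 to 0.08. TUBA4A became -0.04 in AGO1/2 and -0.09 in AGO1/2/3 knockout cells without both libraries (-0.03 to 0.77 and -0.07 to 0.73 with a sample left out). In the interaction term TUBA4A became 0.02 without both libraries and 0.03 with total counts (-0.52 to 0.32), TUBB4B ranged from -0.56 to 0.15 and TUBB6 from -0.38 to 0.05. The cause of these changes was not tested. TUBB2B rested on 6 to 32 counts per sample outside AGO1/2/3 knockout cells.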
